A study of Bos taurus with 8 samples.

Results

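The DLK1-DIO3 cluster is a group of miRNA genes in an imprinted region, which lies on chromosome 21 in cattle. Its members were taken by name (bta-mir-127, bta-mir-154c, bta-mir-379, bta-mir-1247 and so on, written miR-127 or mir-127 below), as rows of the count table with the biotype miRNA. Of 57 names looked for, 51 had a row, out of 1153 miRNA genes in the table, and mir-323b, mir-382, mir-409a, mir-544b, mir-668 and mir-889 were not analysed here. The libraries were made from small RNA of liver tissue of 8 Holstein Friesian cows, 1 library per cow, taken approximately 14 days postpartum. The 4 cows in mild negative energy balance (MNEB; libraries 2M, 3M, 4M and 5M) had no limit on grass silage. The 4 cows in severe negative energy balance (SNEB; libraries 7S, 8S, 9S and 10S) had a silage allowance of 25 kg/day. The daily ration of concentrate (21% crude protein) was 8 kg in MNEB and 4 kg in SNEB, and the number of milkings per day was 1 and 3. Feeding and milking differed together between the groups, so their effects cannot be told apart. The treatment label of library 2M reads SNEB while its title carries the letter of the MNEB cows, and it was analysed as MNEB, with its values under the other placement given where they matter.

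In mammals, the DLK1-DIO3 region is transcribed from both parental chromosomes, but each chromosome gives other products. The protein-coding genes DLK1 (a transmembrane ligand related to Notch ligands), RTL1 (a retrotransposon-derived gene needed in the placenta) and DIO3 (the enzyme that inactivates thyroid hormone) are read from the paternal copy. The non-coding RNAs MEG3, MEG8 and MEG9, small nucleolar RNAs and the miRNAs are read from the maternal copy, and 1 group of the miRNAs lies antisense to RTL1. The miRNAs are best known from brain, placenta, embryonic tissue and mesenchymal cells.

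The 51 genes together held 107034 reads over the 8 libraries, 0.0520% of all miRNA reads. Levels of single genes are given as reads per 1000000 gene counts (RPM). Since a small RNA read covers a whole mature miRNA, levels of different genes were compared without division by length. Gene counts per library ranged from 21617227 to 33963761, and miR-122, the miRNA that dominates hepatocytes, took between 60.9% (4M) and 91.9% (5M) of the miRNA reads. In 5M only 1.91% of the miRNA reads lay outside the 10 most abundant miRNAs, against 7.28% in 4M. The hepatocyte markers summed to 746924 to 938549 RPM in MNEB and 755765 to 821584 RPM in SNEB.

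Most of the cluster was detected in these livers, although at low levels. Reads were found for 45 of the 51 genes (88.2%), against 391 of the 568 named miRNA genes outside the cluster (68.8%). In every library, reads were found for 28 members (54.9%), against 40.0% of the named genes outside the cluster. The order was the opposite for high levels, since 6 members (11.8%) had a mean above 10 RPM, against 20.1% of the named genes outside the cluster. Another 17 members lay between 1 and 10 RPM, and 22 had reads but a mean below 1 RPM. The members were chosen by name, and no test was made of these shares.

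**Figure D1:**
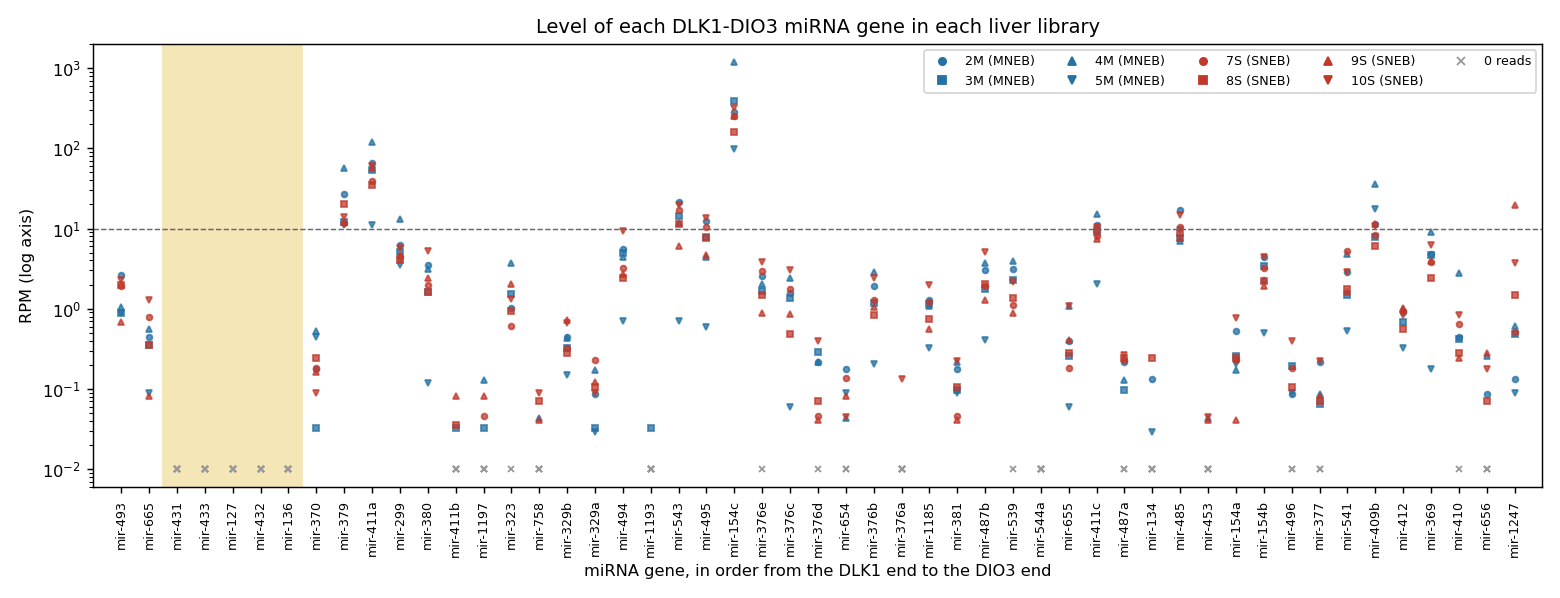
Reads per 1000000 gene counts (RPM, log axis) of the 51 DLK1-DIO3 miRNA genes in each of the 8 libraries, ordered along the region. Blue marks are MNEB and red marks SNEB libraries, grey crosses stand for 0 reads, the shaded genes lie inside RTL1, and the dashed line is at 10 RPM; miR-154c stands highest and the 5 shaded genes have no reads.

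Along the region, in the order of the RefSeq annotation (ARS-UCD2.0, used for names and neighbours only, in which all 51 genes were matched), the reads came almost entirely from 1 stretch. miR-493 and miR-665 lie first, between MEG3 and RTL1, and gave 0.376% of the cluster's reads. The next 5 genes, mir-431, mir-433, mir-127, mir-432 and mir-136, lie inside RTL1 and had no read in any library. miR-370, inside MEG8, gave 0.0458%. The array of 42 genes between MEG8 and MEG9 gave 99.0%, with reads for 41 of the genes, 24 of them in every library, and with mir-544a as the gene without reads. miR-1247, at the far end beside DIO3, where it overlaps the antisense transcript DIO3OS, gave 0.618%.

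The absence of reads was thus gathered at 1 place: all 5 genes inside RTL1 had none, against 1 of the 46 genes outside it. A count of 0 allows up to 3 reads, or 0.0883 RPM (5M) to 0.139 RPM (7S) in a single library, which is a limit of counting error only. RTL1 itself had no row of that name. Whether other counted genes overlap these 5 was not tested, and no source used here states whether reads were counted by strand.

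miR-154c (ENSBTAG00000048146), the gene at position 23 of 51, was by far the most abundant member. Its levels were 283 RPM in 2M, 391 in 3M, 1197 in 4M and 98.1 in 5M among the MNEB cows, while the SNEB cows 7S, 8S, 9S and 10S had 255, 161, 252 and 315 RPM. The MNEB cows thus held both the highest and the lowest value, and all SNEB values fell between them. With a mean of 369 ± 346 RPM (SD, n = 8) it ranked 27 among all miRNA genes and made up 68.02% of the cluster's reads.

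miR-411a (ENSBTAG00000029845), near the MEG8 end of the array, came next with 55.1 ± 31.8 RPM (SD, n = 8). It had 65.4, 53.2, 121 and 11.1 RPM in libraries 2M, 3M, 4M and 5M, and 39.1, 34.6, 56.5 and 60.5 RPM in 7S, 8S, 9S and 10S. Again 4M was highest and 5M lowest, with the SNEB cows between them. Together miR-154c and miR-411a held 78.2% of the reads.

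4 more members lay above 10 RPM, and these brought the share of the reads to 88.9%. miR-379 (ENSBTAG00000036379), the first gene of the array, had 26.7, 12.03, 57.0 and 11.2 RPM in the MNEB libraries 2M, 3M, 4M and 5M, and 11.6, 19.98, 12.1 and 13.9 RPM in the SNEB libraries 7S, 8S, 9S and 10S. miR-409b (ENSBTAG00000029961), in the last part of the array, had 11.5, 7.87, 36.2 and 17.3 RPM in MNEB and 8.33, 6.03, 11.5 and 10.9 RPM in SNEB, in the same order of libraries. Both were highest in 4M, and the groups overlapped in both.

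miR-543 (ENSBTAG00000036431) behaved otherwise. Its levels were 21.4, 14.5, 11.8 and 0.707 RPM in 2M, 3M, 4M and 5M, and 16.9, 11.3, 6.12 and 19.7 RPM in 7S, 8S, 9S and 10S. It was lowest in 5M, 30.3-fold below 2M, and 4M lay in the middle of the libraries. miR-485 (ENSBTAG00000036402) had 17.2, 7.58, 6.90 and 9.51 RPM in MNEB and 10.5, 8.83, 7.54 and 14.7 RPM in SNEB. It varied least of these 6 members, 2.49-fold between its lowest library (4M) and its highest (2M), and had almost the same mean in both groups.

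The next 5 members by reads were miR-411c (9.09 ± 3.69 RPM), miR-495 (7.72 ± 4.43 RPM), miR-299 (5.87 ± 3.08 RPM), miR-369 (4.39 ± 2.60 RPM) and miR-494 (4.18 ± 2.64 RPM; SD, n = 8 each). Of these, miR-369 had the widest range as a ratio, 51.1-fold from 0.177 RPM in 5M to 9.02 RPM in 4M. The SDs describe the spread between cows and do not measure how firm this order is. The ranks of single members, all read in the same libraries, were not tested.

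Genes with related names were unequal in reads. In the mir-154 family miR-154c held 99.2% of the reads of 3 genes, in the mir-411 family miR-411a held 85.7% of 3 genes, and in the mir-487 and mir-329 families miR-487b and miR-329b held 94.2% and 79.8%. In the mir-376 family of 5 genes the reads (969 in all) were more evenly spread, with 38.3% in miR-376e. The deposited counts hold only uniquely aligned reads, so reads that fit more than 1 member of a family are missing from them, and the division within a family is uncertain.

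The summed level of the cluster was highest and lowest in MNEB cows. Per 1000000 miRNA reads it was 502 in 2M, 542 in 3M, 1535 in 4M (Wilson 95% interval 1519 to 1551) and 161 in 5M (157 to 166), while the SNEB libraries 7S, 8S, 9S and 10S had 404, 291, 411 and 531. The mean was 409 ± 98.1 for the SNEB cows against 685 ± 592 for the MNEB cows (SD, n = 4 each), a ratio of 0.597. This ratio rested on the outer MNEB cows: it was 1.02 without 4M and 0.476 without 5M. As the tissue is a mixture, fewer cells of a type and less RNA per cell cannot be told apart in these sums.

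**Figure D2:**
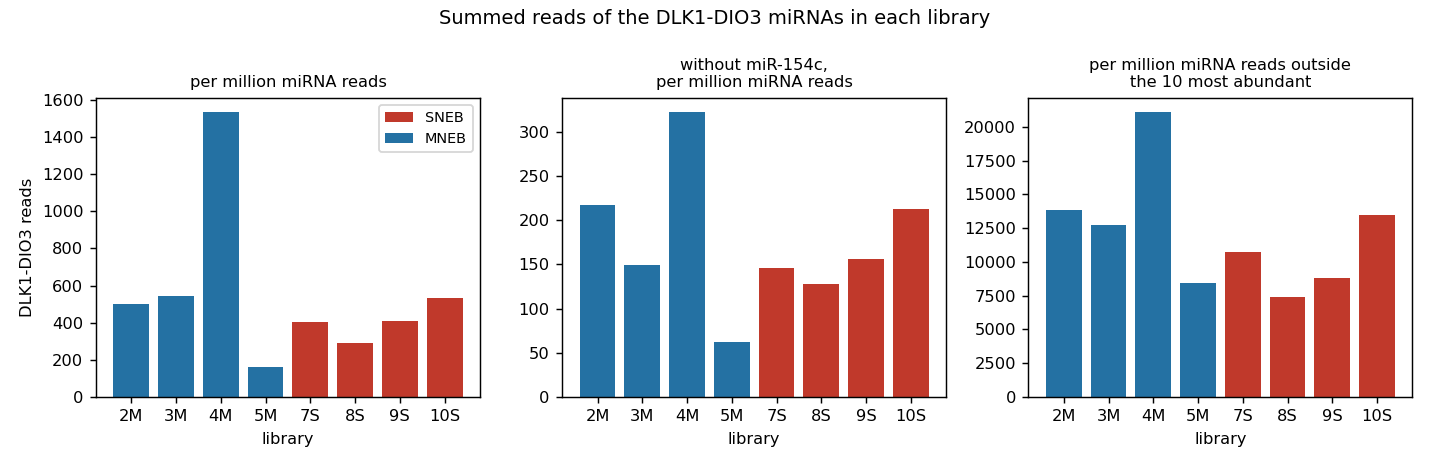
Summed reads of the DLK1-DIO3 miRNAs in each library (bars; blue MNEB, red SNEB), per 1000000 miRNA reads, the same without miR-154c, and per 1000000 miRNA reads outside the 10 most abundant miRNAs. Library 4M is highest on all 3 scales, 5M is lowest on the first 2, and on the third 5M (8443) lies above 8S (7398).

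The order of libraries 4M and 5M depended in part on what the reads were divided by. Without miR-154c, the sum was 323 per 1000000 miRNA reads in 4M and 62.2 in 5M, against 128 to 217 in the other 6 libraries. Per 1000000 reads outside the 10 most abundant miRNAs, it was 21081 in 4M and 8443 in 5M, against 7398 (8S) to 13866 (2M) in the others, so that 5M was no longer lowest. miR-154c took a larger share of the cluster in 4M (79.0%) and 3M (72.4%) than in the other 6 libraries (55.9% to 63.9%).

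Marker miRNAs of other cell types followed the cluster in some libraries and lists, and not in others. The list for stellate cells, smooth muscle and fibroblasts (6 of 6 with reads) summed to 18844 RPM in 4M, against 4446 to 8705 RPM in the other 7 libraries. It ranged from 4446 to 18844 RPM in MNEB and from 4667 to 6447 RPM in SNEB. The next highest library on this list was 5M (8705 RPM), although the cluster's share of all miRNA reads was lowest in 5M. This list thus went with the cluster in 4M and against it in 5M. The list for leukocytes and Kupffer cells (5 of 5 with reads) was highest in 4M (910 RPM) and lowest in 5M (24.4 RPM), and ranged from 308 to 609 RPM in SNEB. The neural list ranged from 11.7 (5M) to 75.9 RPM (2M) in MNEB and from 39.9 to 67.0 RPM in SNEB. Library 4M, at 28.1 RPM, lay below all SNEB libraries on it. Of its 10 genes, 5 were at 0 (mir-124a-2, mir-124b, mir-129-1, mir-9-1 and mir-9-2). The endothelial list (3 of 3 with reads) ranged from 110 to 450 RPM in MNEB and from 273 to 558 RPM in SNEB, the red cell list (3 of 3) from 51.0 to 83.8 RPM and from 62.3 to 108 RPM, and the muscle list (6 of 9, with mir-1-1, mir-208a and mir-208b at 0) from 4.48 to 13.1 RPM and from 9.76 to 13.2 RPM, each lowest in 5M. The part of these cells in the levels of the cluster was not tested.

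Single members did not all follow the summed level. Among the 28 members with a mean of at least 10 reads, 4M was the highest library for 12, 10S for 8, 2M for 4, 9S for 3 and 7S for 1, while 5M was the lowest for 24. Each library was also set against the median of the other 7 on a log2(RPM + 0.5) scale. The median over the members was -1.50 in 5M and 0.67 in 4M. Over all 250 miRNAs above the same read minimum, members included and not matched in level, the medians were near these (-1.44 and 0.58). In 10S the members' median was 0.67, with 26 of 28 members above 0, while that of all miRNAs was 0.17. In 2M it was 0.35, also with 26 of 28 above 0, while that of all miRNAs was 0.08. In 8S and 9S it was -0.35 and -0.33, while that of all miRNAs was -0.02 and 0.17. These 4 libraries fell in both groups, and the distance of the members from the other miRNAs was not tested.

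**Figure D3:**
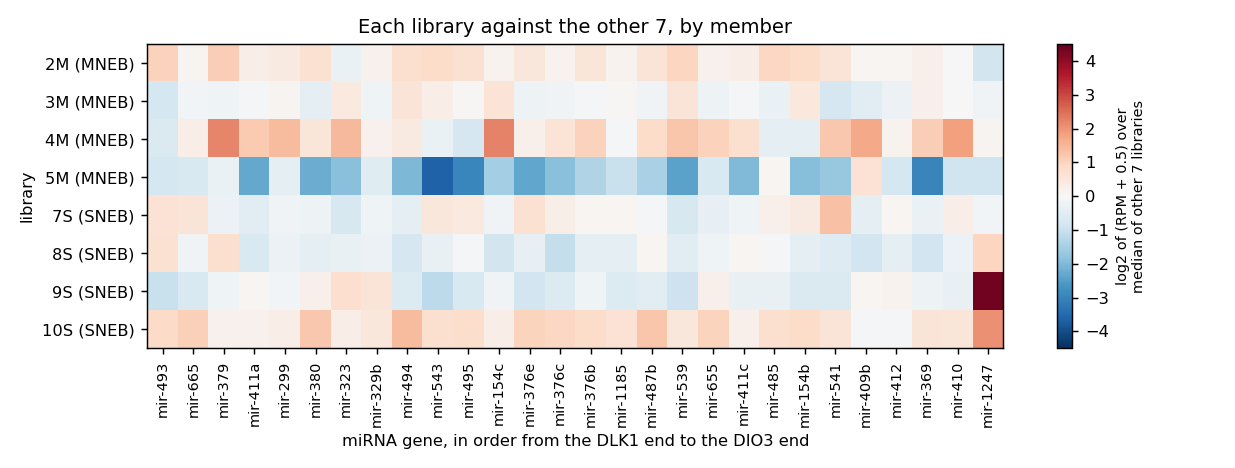
Level of each of the 28 members with a mean of at least 10 reads in each library, as the log2 ratio of (RPM + 0.5) to the median of the other 7 libraries (red above, blue below), in the order of the region. Library 5M is blue for 26 members, 10S and 2M are red for 26 members each, and miR-1247 in 9S is the strongest red.

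Within 5M and 4M, some members went against the rest. In 5M, miR-409b (0.65) and miR-485 (0.10) were above the median of the other 7 libraries on this scale, while miR-543, at -3.63, fell farthest. miR-409b made up 10.8% of the cluster's reads in 5M and 1.46% to 2.82% in the other 7 libraries. 5 members with reads in all other libraries, miR-376e, miR-539, miR-323, miR-410 and miR-376d, had none in 5M. In 4M, miR-495 (-0.77), miR-493 (-0.64), miR-485 (-0.44), miR-154b (-0.42), miR-543 (-0.29) and miR-1185 (-0.05) lay below the median of the other 7 libraries. The median over the members was above 0 in 4M.

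The comparison of the cows in SNEB with those in MNEB asked which of these miRNAs differ with the severity of the energy deficit. Among the 120 miRNAs with a mean above 10 RPM, edgeR's quasi-likelihood test called none of the 6 members at an adjusted p under 0.05, and 0% of all 120. At an unadjusted p under 0.05 it counted 3 members, all lower in SNEB, and 16 of all 120 (13.3%), 5 higher and 11 lower. edgeR's exact test and limma voom also called 0 of the 120, while DESeq2 called 1, no member of the cluster. The median log2 fold change, SNEB over MNEB, was -0.95 for the 6 members and -0.20 for all 120. miR-409b met the 10 RPM filter only through MNEB (mean 18.2 RPM, against 9.17 RPM in SNEB). Its lower level in SNEB, and its part in that median, thus lean on the filter.

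The 3 members below that unadjusted threshold were miR-409b with a log2 fold change of -1.79 (SE 0.65, adjusted p = 0.317), miR-379 with -1.23 (SE 0.51, adjusted p = 0.317) and miR-154c with -1.11 (SE 0.47, adjusted p = 0.317), all by edgeR's quasi-likelihood test. None of them passed the adjusted threshold, and in this fit each difference was smaller without library 4M and without library 5M. In the wider fit described below, miR-154c went from -0.85 to -1.17 without 5M, and miR-409b from -1.51 to -1.62 without 4M. Without scaling, the unadjusted p above 10 RPM was 0.121 for miR-409b, 0.175 for miR-379 and 0.184 for miR-154c by the same test. In the fit above 10 RPM, the log2 fold change of miR-409b was -0.62 without 5M and -0.16 without 4M and 5M. For miR-154c it was -0.47 without 4M, and for miR-379 -0.76 without 5M and -0.48 without 4M and 5M. With library 2M placed in SNEB, the adjusted p of miR-409b was 0.0794 and that of miR-154c was 0.0840. A two-sided exact permutation test of the values per library, whose smallest possible p is 0.0286, gave p = 0.171 for miR-409b, 0.4 for miR-379 and 0.6 for miR-154c.

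The other 3 abundant members had p values above that unadjusted threshold. The log2 fold changes were -0.53 (SE 0.42) for miR-411a, -0.80 (SE 0.62) for miR-485 and 0.13 (SE 0.61) for miR-543, with adjusted p values of 0.627, 0.627 and 0.897 by edgeR's quasi-likelihood test. The sign for miR-485 and that for miR-543 were not stable: without scaling the log2 fold change of miR-485 was 0.0150, and without 5M that of miR-543 was -0.12. The scaling factor of 5M was 0.270, against 1.09 to 1.44 for the other 7 libraries, so the fit raised the values of 5M relative to their RPM.

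**Figure D4:**
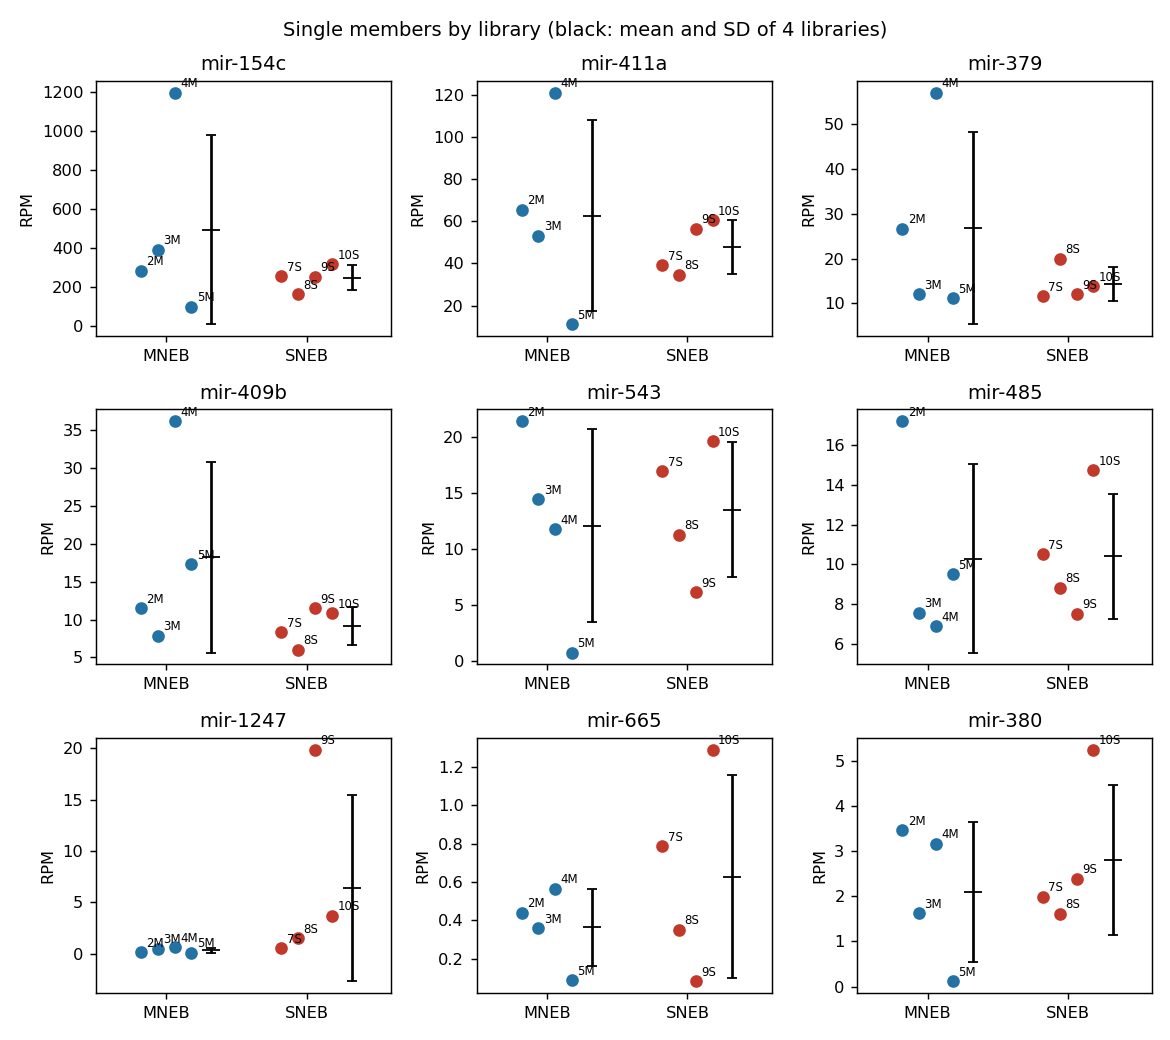
RPM of 9 members in the 4 MNEB (blue) and 4 SNEB (red) libraries, on linear axes, with the mean and SD of each group in black. The groups overlap in every panel, 4M is highest for miR-154c, miR-411a, miR-379 and miR-409b, and 9S (19.9 RPM) stands apart for miR-1247.

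Among the 250 miRNAs with a mean of at least 10 reads, none of the 28 members was called by edgeR's quasi-likelihood test, and 0% of all 250. At an unadjusted p under 0.05 it counted 2 members, 1 in each direction, and 13 of all 250 (5.2%). The median log2 fold change of the members was 0.01, with 15 above 0 and 13 below, and that of all 250 was also 0.01. Over the alternatives that kept the quasi-likelihood test and changed a single setting, the median of the members ranged from -0.29 (without 10S) to 0.20 (2M in SNEB). The 6 members above 10 RPM had a median of -0.74 in this fit and the other 22 a median of 0.05. None of the 28 members had groups that did not overlap in RPM, and 0.8% of the 250 miRNAs did.

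**Figure D5:**
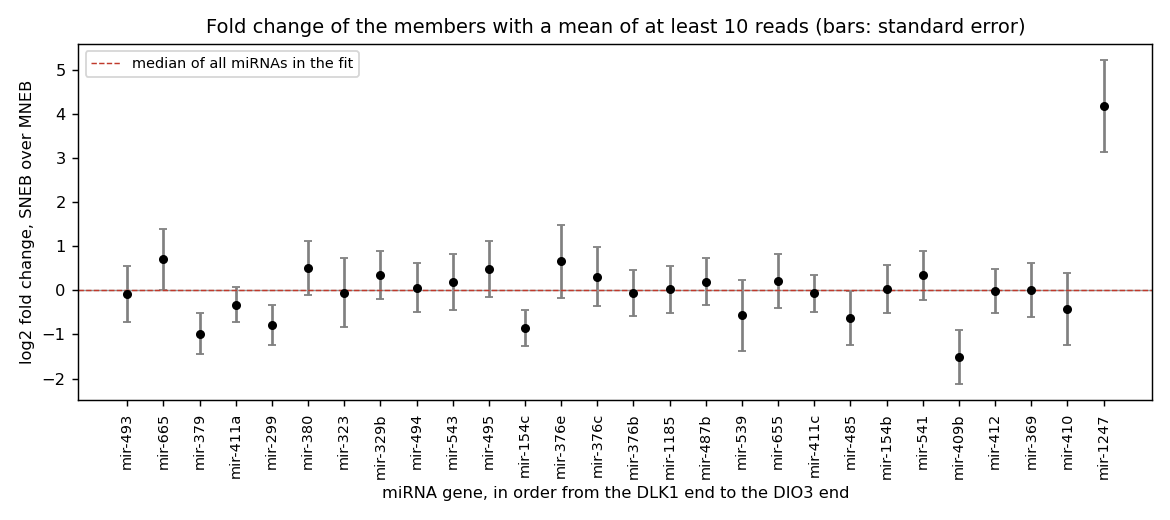
Log2 fold change, SNEB over MNEB, of the 28 members with a mean of at least 10 reads from edgeR's quasi-likelihood fit over 250 miRNAs (points, bars are standard errors), in the order of the region. Most points lie around the median of all miRNAs (dashed line), miR-409b (-1.51) is lowest and miR-1247 (4.18) highest.

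miR-1247 (ENSBTAG00000038073), the gene beside DIO3, was the member with the largest difference between the groups. It had 3 reads in 2M, 15 in 3M, 14 in 4M and 3 in 5M, while 7S, 8S, 9S and 10S had 11, 42, 491 and 83 reads. As RPM these were 0.132, 0.488, 0.607 and 0.0883 in MNEB and 0.509, 1.47, 19.9 and 3.69 in SNEB. The 3 highest libraries were SNEB cows, the fourth SNEB cow (7S) lay below 4M, and 9S stood far above all others. In 9S miR-1247 made up 4.89% of the cluster's reads, against at most 0.701% in the other 7 libraries.

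The log2 fold change of miR-1247 was 4.18 (SE 1.04, an 18.1-fold higher level in SNEB), with an unadjusted p of 0.00162 and an adjusted p of 0.406 in the quasi-likelihood fit of edgeR over 250 miRNAs. In MNEB alone its mean was under the minimum of 10 reads, so it entered this fit only through its SNEB reads. miR-665 and miR-329b entered it in the same way. The call of miR-1247 depended on the test. It passed the threshold with edgeR's exact test (adjusted p = 0.0209, called for 0.4% of the 250), with DESeq2 (adjusted p = 0.00214, also 0.4%) and with the quasi-likelihood test over all 480 miRNAs that had any read (adjusted p = 0.0230, called for 0.208%). It did not pass with limma voom (adjusted p = 0.875) or with limma voom with sample weights (adjusted p = 0.637). The two-sided exact permutation test gave p = 0.0571, which adjusted over the 250 miRNAs is 1. As its smallest possible p is 0.0286, an adjusted value could pass only if most of the 250 miRNAs reached that p. The adjusted value therefore decides nothing about miR-1247.

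The size of the difference rested largely on library 9S. Without it the log2 fold change of miR-1247 was 2.41 (SE 0.72, adjusted p = 0.656), and none of the 3 calls was left, with adjusted p values of 0.270 by edgeR's exact test, 0.146 by DESeq2 and 0.165 by the quasi-likelihood test without filter. The exact test also lost the call without 2M (adjusted p = 0.0605), 3M (0.0544), 4M (0.160) or 5M (0.297), and the quasi-likelihood test without filter lost it without 3M (0.0507), 4M (0.0916) or 5M (0.0639). DESeq2 kept it in those cases, with adjusted p values of 0.00534 to 0.00975 without an MNEB library. With 2M in SNEB the log2 fold change by the quasi-likelihood test was 3.59 (adjusted p = 0.233). The MNEB levels were close to the limit of counting, at 3 to 15 reads.

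miR-665 and miR-380 had the next smallest p among the members that were higher in SNEB, but neither passed the test. miR-665, which lies between miR-493 and RTL1 and had 95 reads in all, was at 0.438, 0.358, 0.564 and 0.0883 RPM in MNEB and 0.786, 0.351, 0.0810 and 1.29 RPM in SNEB, with the SNEB cows both at the top and at the bottom. Its log2 fold change was 0.71 (SE 0.69, adjusted p = 0.932 by edgeR's quasi-likelihood test, exact permutation p = 0.514). miR-380 had 3.46, 1.63, 3.17 and 0.118 RPM in MNEB and 1.99, 1.61, 2.39 and 5.25 RPM in SNEB. Its log2 fold change was 0.50 (SE 0.62, adjusted p = 0.978 by edgeR's quasi-likelihood test, exact permutation p = 0.6), and without 10S it was -0.0065.

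The 19 members with a mean of at least 10 reads not described one by one had log2 fold changes between -0.78 (miR-299) and 0.66 (miR-376e), with standard errors of 0.42 to 0.83, and no adjusted p below 0.718 by edgeR's quasi-likelihood test. The first gene of the region, miR-493, was among them with -0.09 (SE 0.63), as were miR-410 with -0.43 (SE 0.82) and miR-494 with 0.06 (SE 0.56). Another 17 members with fewer reads were not tested in this fit. Among these, miR-370 had 0.0325 RPM in 3M to 0.521 RPM in 4M, and miR-376a and miR-1193 were seen in 1 library each, with 3 reads and 1 read in all.

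Fragments of other genes of the region were few. No row was named DLK1, RTL1, DIO3, MEG3, MEG8, MEG9 or SNORD114. The 29 genes named SNORD112 had no reads, and 11 of the 39 genes named SNORD113 had 85 reads in all, 0.130 to 0.934 RPM per library, although genes of this family name may lie elsewhere in the genome. Of the flanking genes, BEGAIN had no reads, WDR25 had 3, WARS 66 and PPP2R5C 82, while DYNC1H1, a cytoplasmic dynein heavy chain, had 1664 with its highest level in 4M (21.0 RPM, against 4.39 to 9.25 RPM in the other 7 libraries). DYNC1H1 and WARS (1.39 RPM in 4M) thus shared their highest library with miR-154c. The others did not: SNORD113 was highest in 10S (0.934 RPM) and PPP2R5C in 8S (0.701 RPM, against 0.694 RPM in 4M). WDR25 had no reads in 4M. These fragments show RNA of the genes in the libraries and do not measure their mRNA levels.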

How the data were processed

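Small RNA of 8 livers was sequenced, and the deposited values are raw counts of reads per Ensembl gene (24616 genes, 1153 of them miRNA genes), made by the authors with FastQC 0.10.0, Cutadapt 1.1 (reads under 18 nt removed), base quality filters, Novoalign 2.07.11 in its miRNA mode on UMD3.1 and HTSeq 0.5.3p3, with uniquely aligned reads only. A second deposited sheet holds averages without a sample and was not used, and 3 rows naming no gene were left out. The column with the heading 6S was read as 8S, whose label names that column. The 4 MNEB libraries were compared with the 4 SNEB libraries in edgeR (4.0.16, in R 4.3.3) by the quasi-likelihood test, TMM-scaled, with p-values adjusted after Benjamini and Hochberg over all miRNAs in a fit, with a mean above 10 RPM or a mean of at least 10 reads. On simulated data, the fit above 10 RPM recovered 9.33% of 2-fold, 70.9% of 4-fold and 98.1% of 8-fold changes. The wider fit recovered 7.25%, 45.5% and 86.5% of them. Many miRNAs were changed at once: over 20 simulations, 150, 175 and 155 changes of these sizes among 120 miRNAs, and 331, 336 and 333 among 250. The adjusted threshold is more lenient where many miRNAs change, so these shares may be too high for a lone change. A member that was not called may thus still differ, above all by a small factor. Values of single miRNAs were also tested by exact permutation (two-sided, 70 assignments) on log2(RPM + 0.5) (Python 3.11.15, scipy 1.17.1, numpy 2.4.6, pandas 2.3.3, statsmodels 0.14.6). Figures were drawn with matplotlib 3.10.9.

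The scaling (upper quartile, RLE, none), the filter, the library sizes (without the 10 most abundant miRNAs), the test (DESeq2 1.42.0, the exact test of edgeR, voom in limma 3.58.1 plain or with sample weights), the group of 2M and the set of libraries (each omitted in turn) were varied as alternatives. Shares of single libraries carry 95% Wilson intervals, and a count of 0 allows 3 counts. Intervals cover counting error only, since reads carry no molecular identifiers. No library was a copy of another of its group: the chi-square per degree of freedom was at least 124 in the 12 within-group pairs, and pairs between groups were not compared.

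The members and lists were chosen with earlier results of these data known. Named were members above 10 RPM, miR-1247, the 3 members with the smallest p in each direction, the 5 next by reads, the first and last along the region, miR-370 and the 5 genes inside RTL1, those with 1 library apart from its group, and members without reads. Genes of the region and lists of marker miRNAs for hepatocytes, stellate cells with smooth muscle and fibroblasts, endothelium, leukocytes with Kupffer cells, red cells, muscle and neural cells were summed per library. A grouping by seed was not made, since no mature sequences were used here.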

Additional observations from a re-analysis of the deposited data

Results flagged for a closer look

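In 4 of 56 groups of 4 libraries (28 members with a mean of at least 10 reads, in MNEB and SNEB), 1 library stood apart from the other 3 by Dixon's test, which chance alone gives in about 1 in 20 groups. Each fell in another library. miR-1247 was at 19.9 RPM in library 9S, against 0.509 to 3.69 RPM in the other SNEB libraries. miR-494 was at 9.43 RPM in library 10S, against 2.42 to 3.19 RPM in the other SNEB libraries. miR-493 was at 2.63 RPM in library 2M, against 0.878 to 1.04 RPM in the other MNEB libraries and 0.689 to 2.27 RPM in SNEB, the group that the treatment label of 2M names. miR-410 was at 2.78 RPM in library 4M, against 0 to 0.438 RPM in the other MNEB libraries.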

How the results depend on the processing

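No member above 10 RPM was called under any of the 18 alternatives. Among the miRNAs with a mean of at least 10 reads, the count of called members was 0 with the main test and 1 with edgeR's exact test, DESeq2 and no filter, miR-1247 each time, and between 0 and 1 when a library was left out of these tests. The last of these, and the fits without 4M and 5M together, were chosen after seeing the data. The count of members with a read in every library was 28, and 45 with a read in any library. Log2 fold changes that changed sign, in the fit above 10 RPM, were those of miR-543 (0.13), between -0.12 and 0.71 with 1 library left out and -0.44 without 4M and 5M, and of miR-485 (-0.80), 0.0150 without scaling and between -1.003 and 0.072 with 1 library left out. In the wider fit they were those of miR-543 (0.20), between -0.23 and 0.62 with 1 library left out and -0.47 without 4M and 5M, of miR-485 (-0.63), 0.0150 without scaling, and of miR-380 (0.50), between -0.0065 and 0.96 with 1 library left out. None of these was called in any fit, and the cause was not tested. miR-1247 was 4.29 without a filter (adjusted p = 0.0230), and 2.34 (DESeq2 without 9S) to 4.56 over all fits run. Of 15 fold changes of named members, with members above 10 RPM counted in both fits, 10 kept their sign under every alternative that used the quasi-likelihood test. The other tests were not part of this count. Above 10 RPM, limma voom with sample weights gave -0.0152 for miR-543 and 0.121 for miR-485. The summed ratio of SNEB to MNEB ranged from 0.476 to 1.02. No paired analysis was possible because the groups share no replicate numbers. Depth limits the members below 1 RPM, where 1 read more or less changes a value visibly.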

Other observations

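A miRNA gene of the array that was not among the names looked for, mir-3578, was noticed after its values had been seen. In the RefSeq annotation it overlaps the gene of miR-382, whose name had no row. It had 1038 reads in 2M, 1242 in 3M, 2681 in 4M and 209 in 5M, while 7S, 8S, 9S and 10S had 863, 738, 1294 and 1051. Its highest and lowest libraries were the same as those of miR-154c, and the SNEB values lay between them. It had more reads than miR-379 in every library but 5M (209 against 381). The sums, shares and order of members given above leave it out and hold only among the names looked for. The other genes of the array outside the list, mir-3956 and mir-3957, had at most 10 and 32 reads in a library.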
